A study of Homo sapiens with 6 samples.

Results

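In DU145 cells, a human prostate cancer line derived from a brain metastasis, none of 10 p53 target genes passed the test after taraxasterol (TAX) treatment. The 10 genes are MDM2, GDF15, SESN1, RRM2B, ZMAT3, FDXR, XPC, DDB2, TIGAR and TP53I3, taken by their symbols from the 23062 identifiers that each library listed. They are p53 targets other than the apoptosis genes and the CDK inhibitors. All 10 symbols were found once in every library. RNA came from 3 control cultures kept in medium and from 3 cultures exposed for 48 h to TAX at its IC50 dose in these cells, 56 µM. All 6 cultures are of the same line and carry the genotype label WT. TAX was dissolved in DMSO, and no source says whether the control cultures received DMSO, so the solvent and TAX cannot be told apart. The labels number the cultures 1 to 3 in each group and do not say whether they were set up separately, so p-values measure the spread between these libraries, which may be technical.

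p53 is a transcription factor that is held at a low level by MDM2, is released when DNA is damaged or growth signals are abnormal, and then binds pairs of short DNA elements near its target genes. Its targets stop the cell cycle, repair DNA, change metabolism or kill the cell, and MDM2 itself is a target, which closes a feedback loop. Most of its targets also have basal transcription that does not need p53, and several of them respond to other factors.

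The elements that p53 binds are shown for the genes whose promoters held one, because they are what the 10 genes are expected to share. RefSeq promoter windows (GRCh38.p14) of 300 bases, from 250 before to 50 after a transcription start, were held for 9 of the 10 genes, 17 windows in all. They were searched for the p53 full site by its consensus, allowing at most 3 mismatches over a pair of 10-base elements no more than 1 base apart, with the core CNNG kept in each. The consensus reads the same on both strands. A match was found in windows of MDM2, DDB2, SESN1, FDXR and GDF15, that is in 5 of the 9 genes and 6 of the 17 windows, against 2.38% of all 35116 windows and 2.91% of all genes with a window. Genes with more starts have more windows, and a match describes the letters and not binding in these cells. In the lines that follow, read in the direction of the gene, the capitals mark the matched elements.
MDM2: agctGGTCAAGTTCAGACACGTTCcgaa
DDB2: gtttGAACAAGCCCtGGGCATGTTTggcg
SESN1: gtctGGACAAGTCTCCACAAGTCAgaaa
FDXR: gcccGGGCAGGAGCGGGCTTGCCCtgcg
GDF15: gcacAGCCATGCCCGGGCAAGAACtc
The DDB2 stretch, chr11:47214975-47215003 on the plus strand, matched the consensus with 0 mismatches and a spacer of 1 base, from base 6 after its start, in an exon. The MDM2 stretch, chr12:68808919-68808946 on the plus strand, had 2 mismatches and lies in an intron of the gene, before the 2 internal starts, 94 and 101 bases upstream. The other 3 had 3 mismatches each. That of SESN1, chr6:109009014-109009041 on the minus strand, is intronic and begins 49 bases before an internal start. That of FDXR, chr17:74872992-74873019 on the minus strand, is exonic in GENCODE 29 and begins 21 bases before the RefSeq start. That of GDF15, chr19:18386182-18386207 on the plus strand, lies in an exon, from base 29 after the start. In XPC, ZMAT3, TIGAR and TP53I3 no match was found in the windows searched, which says only that these letters are not there.

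Library quality is given in short. The values, taken as FPKM (fragments scaled to gene length and library size), summed to between 322483 and 363724 per library. No read counts were given, so depth is unknown and no counting interval can be printed. Control replicate 3 stood apart in level, since its median over tested genes was 3.28 on the log2(FPKM + 1) scale, against 3.44 to 3.46 in the other 5 libraries. The epithelial markers KRT8, KRT18, KRT19, EPCAM and CDH1 had means of at least 47.5 FPKM in both groups. KLK3, a marker of differentiated prostate epithelium, was listed at 0 in all 6 libraries, and PTPRC of leukocytes and PECAM1 and CDH5 of endothelium were at or near 0. Of the fibroblast markers DCN was listed at 0 in all 6 libraries, while the collagen gene COL1A1 had 2.02, 2.08 and 1.89 FPKM in control replicates 1 to 3 and 1.43, 1.48 and 1.42 FPKM in TAX replicates 1 to 3, without overlap. Of 17 markers 8 were tested and 0 passed at an adjusted p under 0.05. The smallest p were those of CD68, a lysosomal protein abundant in macrophages (23.4 ± 3.34 FPKM in control and 33.0 ± 0.482 FPKM in TAX libraries, adjusted p = 0.0884 from limma), COL1A1 (log2 fold change -0.29, adjusted p = 0.197) and KRT19 (log2 fold change 0.32, adjusted p = 0.336). The part of these markers in the results that follow was not tested. In RNA of whole cultures, fewer cells of a kind and less RNA per cell cannot be told apart.

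In control cells 9 of the 10 genes lay between 2.14 FPKM (SESN1) and 13.1 FPKM (RRM2B) in the mean, and GDF15 lay far below them at 0.330 FPKM. FPKM is per length, so levels can be set side by side. The order was RRM2B, DDB2, MDM2, TP53I3, XPC, ZMAT3, FDXR, TIGAR, SESN1 and GDF15. In the control libraries the values of MDM2 and TP53I3 overlapped, as did those of ZMAT3 and FDXR, so neither pair has a firm order, while the other neighbours did not overlap. Over all 6 libraries RRM2B and DDB2 also overlapped, as did FDXR and TIGAR. RRM2B lay above 78.5% of all listed identifiers, SESN1 above 53.4% and GDF15 above 37.6%.

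**Figure D1:**
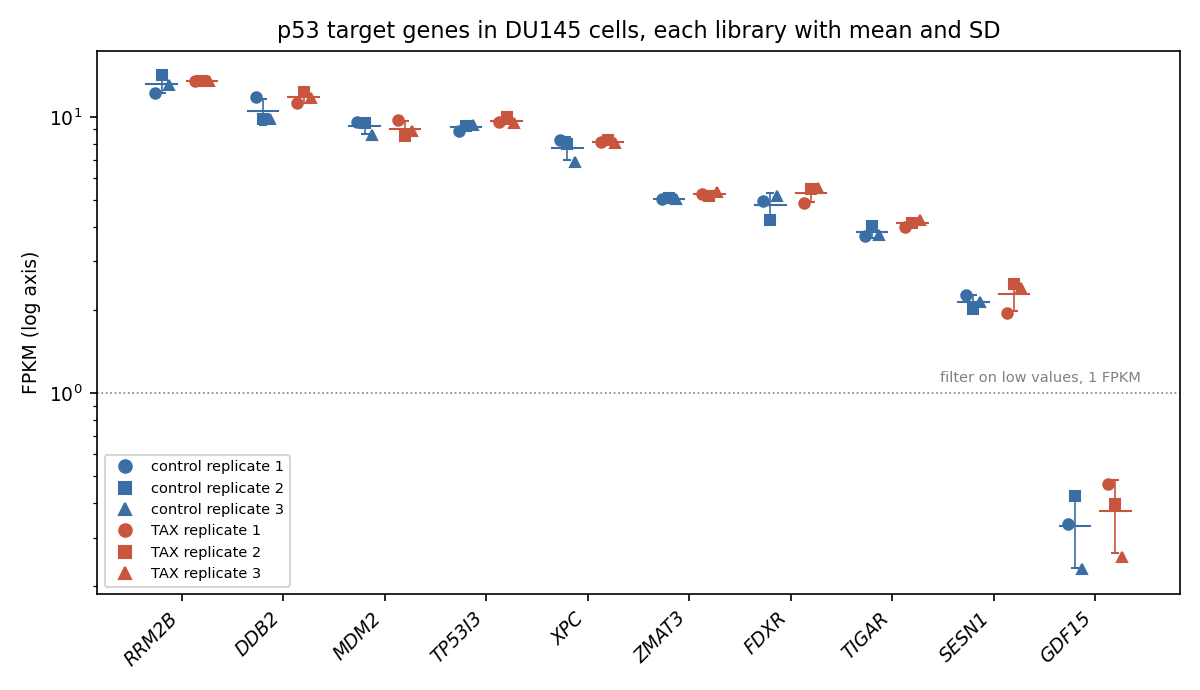
FPKM of the 10 p53 target genes (log axis) in each of 3 control (blue) and 3 TAX (red) libraries, with horizontal lines for group means and bars for SD (n = 3). The genes run from RRM2B at 13.1 FPKM to GDF15 at 0.330 FPKM in control cells, and GDF15 is the only one under the dotted line at 1 FPKM.

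The comparison asks which genes changed in DU145 cells after TAX. limma was run on log2(FPKM + 1) for 12359 genes, those reaching 1 FPKM in 3 libraries or more, and p-values were adjusted after Benjamini and Hochberg. For 9 of the 10 genes the values come from this fit. GDF15 did not pass the filter on low values and was fitted in a second fit of 12379 genes. By limma, 0 of the 10 genes had an adjusted p under 0.05, where 0.477% of all tested genes did. At an unadjusted p under 0.05 the count was also 0 in either direction, where 7.73% of all tested genes were higher and 2.41% lower. The differences of the 10 genes ran from -0.03 to 0.16 on the log2(FPKM + 1) scale, with adjusted p from 0.579 to 0.928. Of the 9 tested genes 8 were above 0, with a median of 0.07, beside a median of 0.05 over all tested genes, 69.1% of which were above 0. With the medians of the libraries made equal, 5 of all 10 genes were above 0. The groups did not overlap, with TAX above control, for TP53I3 and ZMAT3, and for 14.6% of all tested genes. For 0 of the 10 genes TAX lay wholly below control, as it did for 3.34% of all tested genes.

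The 95% intervals say how large a change could have been missed. On the log2(FPKM + 1) scale they reached down to 0.864-fold, for MDM2, and up to 1.28-fold, for DDB2. All 10 lay within 1.5-fold in either direction. This scale understates changes of low genes, and with a pseudocount of 0.1 the intervals of 9 of the 10 genes still lay within 1.5-fold, while that of GDF15 ran from 0.778-fold to 1.56-fold. A p above the threshold does not show that the levels were equal.

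**Figure D2:**
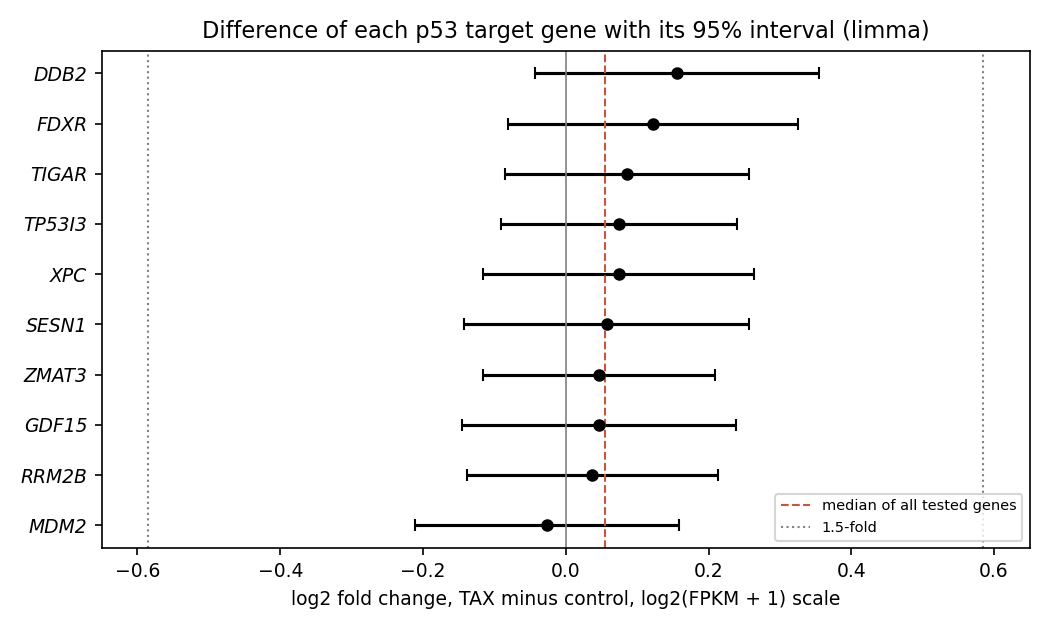
Log2 fold change of each of the 10 genes, TAX minus control, on the log2(FPKM + 1) scale, with 95% intervals from limma (n = 3 each). All intervals cross 0 and the dashed median of all tested genes, and all end inside the dotted lines at 1.5-fold.

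MDM2, on chromosome 12 from 68808176 to 68850686 (GENCODE 29, GRCh38, as for all positions in the text that follows), encodes the ubiquitin ligase that marks p53 for degradation. Control replicates 1 to 3 gave 9.60, 9.47 and 8.61 FPKM, and TAX replicates 1 to 3 gave 9.72, 8.51 and 8.90 FPKM, the order used for every gene that follows. The groups overlapped over nearly their whole range, and MDM2 was the only one of the 10 with a lower mean after TAX. The group means of MDM2 were 9.23 ± 0.538 and 9.04 ± 0.616 FPKM (SD, n = 3 each). limma put its log2 fold change at -0.03 (standard error 0.08, adjusted p = 0.928). MDM2 shares 133 exonic bases with CPM on the opposite strand, which had 17.8 to 21.3 FPKM, and whether counting used strand is not stated. The gene has an early promoter and the internal one whose element is shown above, and 1 value per gene does not separate their transcripts.

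XPC and DDB2 recognise damaged DNA at the start of global nucleotide excision repair, DDB2 at ultraviolet lesions in chromatin and XPC at distorted helices. XPC, on chromosome 3 from 14145147 to 14178783, had 8.24, 7.98 and 6.85 FPKM in the control and 8.10, 8.26 and 8.02 FPKM in the TAX libraries. The TAX values lay close together beside the 2 upper controls, TAX replicate 2 being the highest of all, and control replicate 3 was the low one. The difference of 0.07 on the log2 scale (standard error 0.09, limma adjusted p = 0.782) was 0.0025 without control replicate 3. XPC shares 318 exonic bases with LSM3 on the opposite strand, which had 7.85 to 11.013 FPKM. DDB2, on chromosome 11 from 47214465 to 47239240, had 11.8, 9.83 and 9.81 FPKM in the control and 11.2, 12.3 and 11.7 FPKM in the TAX libraries. Control replicate 1 lay among the TAX libraries, while the other 2 controls lay below all of them. DDB2 differed by 0.16 on the log2(FPKM + 1) scale (standard error 0.09, adjusted p = 0.579 from limma). Without control replicate 1 it was 0.24 with an unadjusted p of 0.0233 and an adjusted p of 0.411 (limma).

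RRM2B, on chromosome 8 from 102204502 to 102239118, encodes the p53-inducible small subunit of ribonucleotide reductase, which supplies deoxynucleotides outside S phase. It had 12.2, 14.1 and 13.1 FPKM in the control and 13.5, 13.5 and 13.4 FPKM in the TAX libraries. All 3 TAX values fell between the control values, and their coefficient of variation was 0.299%, against 7.20% in the controls. RRM2B differed by 0.04 on the log2 scale (standard error 0.08, limma adjusted p = 0.888), with the opposite sign under quantile normalization, with library medians centred and without control replicate 1.

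TIGAR, TP53I3 and FDXR act in metabolism and redox balance. TIGAR, a phosphatase that lowers fructose 2,6-bisphosphate, lies on chromosome 12 from 4307763 to 4354593. Its FPKM was 3.70, 4.03 and 3.73 in the control and 3.99, 4.11 and 4.24 in the TAX libraries. The groups overlapped only through control replicate 2, which lay just above TAX replicate 1 (log2 fold change 0.09, standard error 0.08, adjusted p = 0.716 from limma). TIGAR shares 1711 exonic bases with AC008012.1 on the same strand, which had at most 0.0235 FPKM. TP53I3, a quinone oxidoreductase on chromosome 2 from 24077433 to 24085861, had 8.86, 9.27 and 9.32 FPKM in the control and 9.58, 10.0 and 9.48 FPKM in the TAX libraries. TAX and control values of TP53I3 did not overlap (two-sided p = 0.1 in an exact permutation test, which cannot go lower with 3 against 3). The difference was small, 9.15 ± 0.253 against 9.69 ± 0.278 FPKM (SD, n = 3 each), or 0.07 on the log2 scale (adjusted p = 0.751 from limma). TP53I3 shares 80 exonic bases with FAM228B on the opposite strand, which had 0.521 to 1.61 FPKM. FAM228B was lower after TAX without overlap (log2 fold change -0.47, adjusted p = 0.177 from limma), and its part in the TP53I3 values was not tested. FDXR, the reductase that passes electrons to mitochondrial ferredoxins, lies on chromosome 17 from 74862497 to 74873031. It had 4.97, 4.22 and 5.17 FPKM in the control and 4.87, 5.50 and 5.50 FPKM in the TAX libraries. TAX replicate 1 lay within the controls and control replicate 2 was the low one (log2 fold change 0.12, standard error 0.09, adjusted p = 0.670 from limma). Without control replicate 2 the difference of FDXR was 0.05.

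SESN1, on chromosome 6 from 108986437 to 109094819, encodes sestrin 1, which restrains mTORC1 through the GATOR complexes. It had 2.26, 2.02 and 2.15 FPKM in the control and 1.95, 2.48 and 2.41 FPKM in the TAX libraries. TAX replicate 1 was the lowest of the 6 libraries and TAX replicate 2 the highest (log2 fold change 0.06, standard error 0.09, adjusted p = 0.842 from limma). Without TAX replicate 1 the difference was 0.13 and without TAX replicate 2 it was 0.01.

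ZMAT3, a zinc-finger protein that binds RNA and affects splicing, lies on chromosome 3 from 179017223 to 179072279. Its FPKM was 5.02, 5.10 and 5.04 in the control and 5.25, 5.18 and 5.34 in the TAX libraries, without overlap (two-sided p = 0.1, exact permutation test). Its control values were unusually close, with a coefficient of variation of 0.796%, smaller than that of all but 0.380% of tested genes. The means differed by a ratio of 1.04, or 0.05 on the log2 scale (standard error 0.07, adjusted p = 0.842 from limma), and the sign turned with the library medians made equal. limma draws the spread of each gene toward that of other genes, so a close set of 3 values counts for little.

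GDF15, a secreted stress cytokine of the TGF-beta family, lies on chromosome 19 from 18374731 to 18389176. It had 0.335, 0.424 and 0.230 FPKM in the control and 0.470, 0.396 and 0.255 FPKM in the TAX libraries. Replicate 3 was the low one in each group, and the groups overlapped. In the second fit the log2 fold change was 0.05 (standard error 0.09, adjusted p = 0.864 from limma). At 29.5% its control coefficient of variation was above that of 97.4% of the tested genes, which have higher levels.

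Which library was highest or lowest differed from gene to gene. Of the 10 genes 9 had their highest value in a TAX library, 4 of them in TAX replicate 2, and RRM2B had it in control replicate 2. The shares of all genes highest in a TAX library or lowest in a control library were not counted. Of all tested genes 69.1% had a difference above 0. With library medians centred 5 of the 10 genes were above 0. The lowest value was in a control library for 8 genes, namely control replicate 1 for 4, control replicate 3 for 3 and control replicate 2 for FDXR. MDM2 was lowest in TAX replicate 2 and SESN1 in TAX replicate 1. Control replicate 3, the library with the low median, thus held the minimum of XPC, DDB2 and GDF15. Its part in the differences was not tested further than by leaving it out, which lowered the median of all genes to 0.0058.

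**Figure D3:**
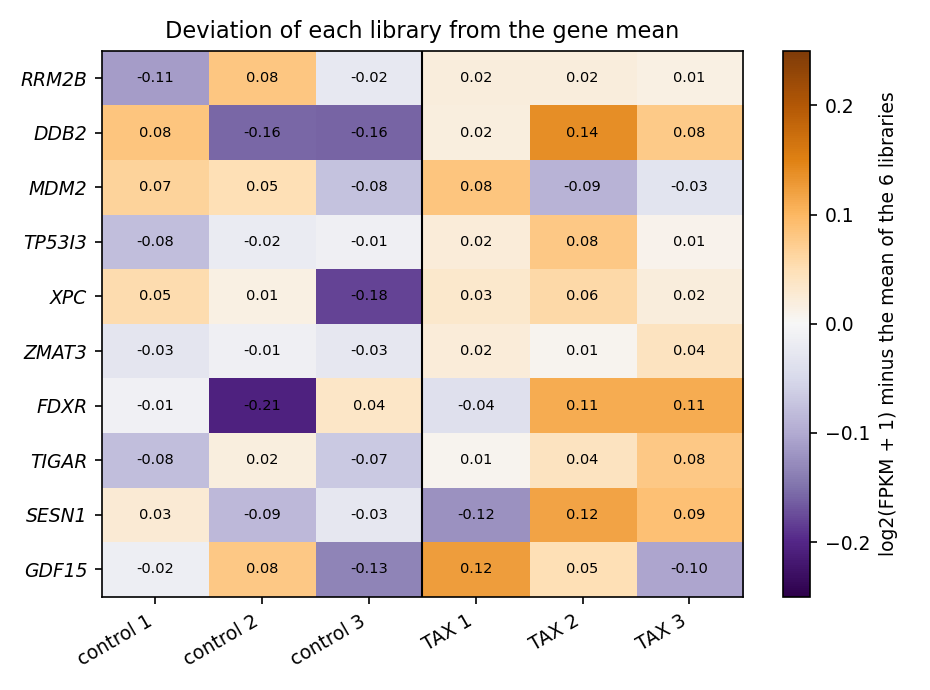
Deviation of log2(FPKM + 1) in each library from the mean of the 6 libraries, for the 10 genes in order of control level, with the value printed in each cell. No library is high or low in all 10 genes, and the deepest cells are FDXR in control replicate 2 (-0.21) and XPC in control replicate 3 (-0.18).

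The regulators of p53 were compared with the same fit. Of 12 tested genes of this list 10 were above 0, with a median of 0.04, and 0 passed at an adjusted p under 0.05. This count and those of the lists that follow stand beside 69.1% of all tested genes above 0. MDM4, the paralog that masks the activation domain of p53, had 5.23 ± 0.998 FPKM in the control and 6.07 ± 0.538 FPKM in the TAX libraries (SD, n = 3 each, limma adjusted p = 0.590), and USP7, which deubiquitinates MDM2 and p53, had 25.3 ± 1.63 and 27.6 ± 1.05 FPKM (adjusted p = 0.621). PPM1D, a phosphatase that is itself a p53 target and ends the response, had 3.05 ± 0.105 and 2.91 ± 0.0750 FPKM (adjusted p = 0.832). CHEK2, a checkpoint kinase that phosphorylates p53, had 24.3, 27.9 and 26.8 FPKM in the control and 22.5, 21.8 and 22.5 FPKM in the TAX libraries. These groups did not overlap, but the difference of CHEK2, -0.23 on the log2 scale (standard error 0.08), had an unadjusted p of 0.0158 and an adjusted p of 0.373 (limma). The family members TP63 and TP73 were under the filter, with at most 0.0160 and 0.146 FPKM in any library.

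Other p53 targets were counted by role. In the list of apoptosis targets 13 genes were tested, 10 above and 3 below 0, with a median of 0.16 and 0 at an adjusted p under 0.05. AEN, a nuclease induced by p53, had the smallest p of these, at 10.4 ± 0.680 FPKM without and 14.4 ± 0.718 FPKM with TAX (SD, n = 3 each), a log2 fold change of 0.42 with a limma adjusted p of 0.0681. TP53INP1, a cofactor of p53-dependent death and autophagy, had 2.98 ± 0.253 and 2.13 ± 0.283 FPKM (adjusted p = 0.212), so the genes of this list with small p differed in sign. TNFRSF10A, a TRAIL receptor, had 15.4 ± 1.03 and 18.2 ± 0.429 FPKM (adjusted p = 0.373). In the list of cell cycle arrest targets 8 genes were tested, 7 above and 1 below 0, with a median of 0.17 and 0 at an adjusted p under 0.05. CDKN1A, the CDK inhibitor p21, had 26.2, 31.3 and 22.5 FPKM in the control and 32.9, 31.1 and 32.9 FPKM in the TAX libraries (adjusted p = 0.435). GADD45A, a stress sensor, had 27.4 ± 9.22 and 38.3 ± 5.23 FPKM (adjusted p = 0.408), and BTG2, an antiproliferative factor, had 4.31 ± 0.484 and 3.45 ± 0.260 FPKM (adjusted p = 0.402). The medians of these 2 lists lie above that of all tested genes, and no difference between lists was tested.

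Of 24 tested genes in the list of other p53 targets, 13 were above and 11 below 0, with a median of 0.02, and 1 passed the test. That gene was CD82, a tetraspanin known as a suppressor of metastasis in prostate cancer. It rose from 4.45, 4.48 and 4.28 FPKM in the control to 7.05, 6.92 and 7.14 FPKM in the TAX libraries. On the log2 scale CD82 gained 0.57 (standard error 0.07), with an adjusted p of 0.0114 in limma. This adjusted p was 0.05002 without TAX replicate 2, 0.0579 without TAX replicate 3 and 0.0923 with no filter on low values, and under 0.05 in the other 10 alternatives. EPHA2, a receptor tyrosine kinase, had 28.9 ± 4.73 and 38.4 ± 0.952 FPKM (adjusted p = 0.224), and SLC12A4, a potassium chloride cotransporter, had 8.68 ± 1.09 and 10.7 ± 0.101 FPKM (SD, n = 3 each; adjusted p = 0.358). SPATA18, a p53 target in mitochondrial quality control, was listed at 0 in all 6 libraries.

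**Figure D4:**
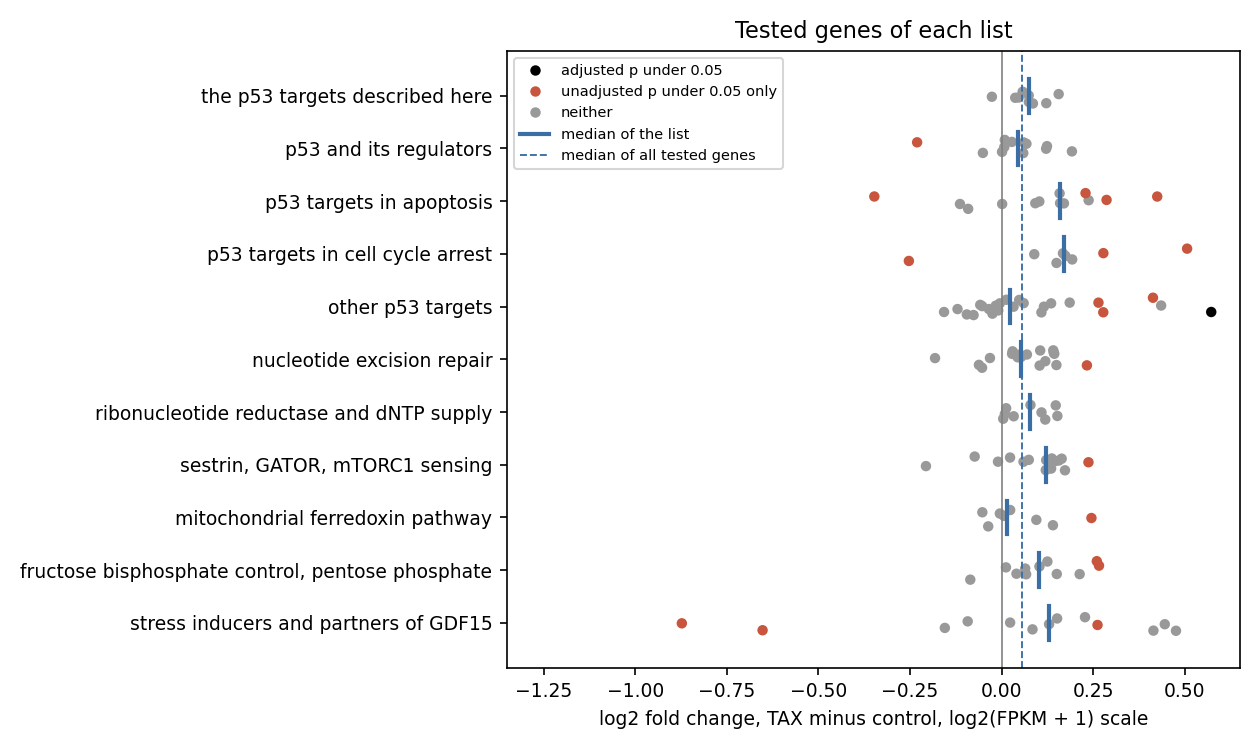
Log2 fold change, TAX minus control, of the tested genes of each list on the log2(FPKM + 1) scale, 1 point per gene, with the median of each list (blue bar) and of all tested genes (dashed line). The 9 tested genes described here lie between -0.03 and 0.16, a narrower range than in the other lists of p53 targets. The list of ribonucleotide reductase and dNTP supply, also of 9 tested genes, is narrower still, from 0.0044 to 0.15. The only black point (adjusted p under 0.05) is CD82.

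Paralogs and partners of some of the 10 genes were set beside them by RNA level, which does not give protein amounts. SESN1, at 2.14 ± 0.121 FPKM in control cells, was the lowest of the sestrins, beside 11.7 ± 4.65 FPKM of SESN2 and 4.86 ± 0.951 FPKM of SESN3 (SD, n = 3). SESN2, which ATF4 also induces, had 11.2, 16.6 and 7.38 FPKM in the control and 18.0, 11.7 and 17.4 FPKM in the TAX libraries (adjusted p = 0.552). SESN3, a target of FOXO factors, had a TAX mean of 4.04 ± 0.208 FPKM without overlap (log2 fold change -0.21, adjusted p = 0.552 from limma). In the list of sestrin, GATOR and mTORC1 sensing genes 12 of 15 were above 0, where 69.1% of all tested genes were. Of these 15 genes 0 had an adjusted p under 0.05. MIOS, a GATOR2 subunit, had the smallest p (log2 fold change 0.24, adjusted p = 0.350), followed by SEH1L, of the same complex (0.16, adjusted p = 0.529).

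Ribonucleotide reductase holds a large subunit and a small one, and the S-phase form of the small subunit, RRM2, was far above RRM2B. RRM2 had 76.4 ± 5.85 FPKM and the large subunit RRM1 45.9 ± 2.40 FPKM in control cells, beside 13.1 ± 0.946 FPKM of RRM2B (SD, n = 3 each). After TAX, RRM2 had 76.8 ± 7.48 FPKM (adjusted p = 0.989) and RRM1 49.6 ± 1.73 FPKM (adjusted p = 0.660). All 9 tested genes of ribonucleotide reductase and dNTP supply other than RRM2B were above 0, with a median of 0.08, and 0 of them passed. Over all tested genes 69.1% were above 0, with a median of 0.05. The smallest p was that of TK1, a thymidine kinase of S phase (0.15, adjusted p = 0.539), before the mitochondrial kinase DGUOK (0.15, adjusted p = 0.566) and DCK (0.12, adjusted p = 0.627).

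In nucleotide excision repair the RNA of the partners was more abundant than that of the damage sensors. DDB1, which binds DDB2 in a ubiquitin ligase, had 71.5 ± 8.03 FPKM in control cells against 10.5 ± 1.14 FPKM of DDB2, and RAD23B, the partner of XPC, had 109 ± 3.63 FPKM against 7.69 ± 0.738 FPKM of XPC (SD, n = 3 each). After TAX, DDB1 had 79.1 ± 2.55 FPKM (adjusted p = 0.616) and RAD23B 112 ± 3.79 FPKM (adjusted p = 0.916). In this list 15 of 19 tested genes were above 0, with a median of 0.05, and 0 passed. ERCC1, of the nuclease that cuts beside a lesion, had the smallest p (log2 fold change 0.23, adjusted p = 0.489), before CETN2, the third subunit of the XPC complex (-0.18, adjusted p = 0.500).

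The ferredoxins that FDXR serves gave different values. FDX2, needed for iron-sulfur clusters, had 9.05, 7.57 and 7.78 FPKM in the control and 10.8, 9.19 and 9.43 FPKM in the TAX libraries, without overlap (log2 fold change 0.25, adjusted p = 0.428 from limma). FDX1, which serves steroid hydroxylases and lipoylation, had 7.85 ± 0.596 and 7.89 ± 0.576 FPKM (SD, n = 3 each; adjusted p = 0.983). Of 8 tested genes of the ferredoxin pathway 5 were above 0, with a median of 0.01, and 0 passed. NFS1 and LYRM4, of the cluster assembly complex, differed by 0.14 and 0.09 on the log2 scale (adjusted p = 0.670 and 0.709). Around TIGAR, 10 of 11 tested genes of fructose bisphosphate control and the pentose phosphate pathway were above 0, with a median of 0.10, and 0 passed. Here too 69.1% of all tested genes were above 0, with a median of 0.05. PFKFB2, which makes the metabolite that TIGAR removes, had the smallest p (log2 fold change 0.27, adjusted p = 0.321), before RPIA (0.26, adjusted p = 0.344) and PFKP (0.21, adjusted p = 0.516).

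**Figure D5:**
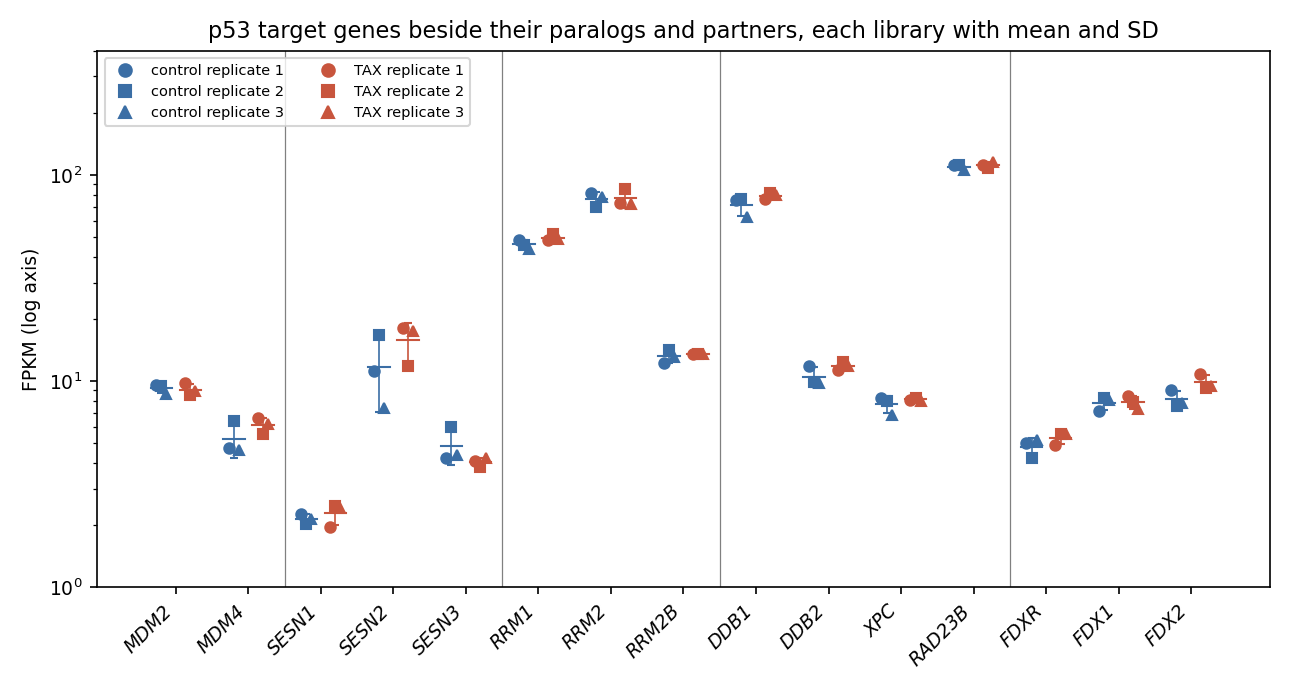
FPKM (log axis) of 6 of the p53 target genes beside their paralogs and partners, in 3 control (blue) and 3 TAX (red) libraries, with group means and SD (n = 3). SESN1 lies under SESN2 and SESN3, RRM2B under RRM1 and RRM2, DDB2 under DDB1, and XPC under RAD23B, in both groups.

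The list of stress inducers and partners of GDF15 was set beside GDF15, and what sets its level was not tested. ATF4, the main factor of the integrated stress response, had 188 ± 31.8 FPKM without and 218 ± 6.52 FPKM with TAX (SD, n = 3 each), with a limma adjusted p of 0.546. Of 13 tested genes of this list 9 were above and 4 below 0, with a median of 0.13, and 0 passed at an adjusted p under 0.05. EGR1, an immediate early factor, had 33.2, 50.5 and 28.0 FPKM in the control and 19.1, 18.1 and 20.7 FPKM in the TAX libraries (log2 fold change -0.87, adjusted p = 0.0731). NR4A1 had 15.6 ± 3.85 and 9.35 ± 0.542 FPKM (log2 fold change -0.65, adjusted p = 0.116), and SMAD3 had 27.2 ± 3.26 and 32.7 ± 1.02 FPKM (log2 fold change 0.26, adjusted p = 0.403). These genes did not pass the test although their groups did not overlap. The receptor gene of GDF15, GFRAL, was listed at 0 in all 6 libraries.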

How the data were processed

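RNA of 3 control and 3 TAX-treated DU145 cultures was sequenced after Trizol isolation and mRNA library preparation. For each library the authors deposited a separate table of gene values, whose unit is read as FPKM because they are decimals with unequal sums. Per the labels, HISAT2 2.2.0, StringTie 2.1.2 and GRCh38 were used, and their roles and settings, the annotation and the counting strand are not given in the sources used here. The prefix MSTRG of 3130 identifiers marks assembled loci whose positions are not known, and fragments of a gene can be assigned to them.

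Genes that reached 1 FPKM in 3 or more of the 6 libraries were fitted on log2(FPKM + 1) by limma (version 3.58.1, R 4.3.3) through lmFit and eBayes, the latter with a mean-variance trend, and with no covariate. Adjusted p-values are Benjamini-Hochberg values over all genes of a fit, and intervals are at 95%. A second fit added the listed genes under the filter. Log2 fold changes are TAX minus control. Single genes were also given an exact two-sided permutation test. The fit was tested on simulated data.

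The 10 genes and all gene lists were chosen with earlier results of these data known. Named beside the 10 genes are the 3 genes with the smallest p of each list, genes of the lists with an adjusted p under 0.05, MDM4, PPM1D, CDKN1A, and paralogs and partners. TP63, TP73, SPATA18, ATF4, GFRAL and overlapping genes were named after their values were seen. Some genes that the rule names are not reported here. TP53COR1 of the lists was not found in the tables. Positions come from GENCODE 29 and promoters from RefSeq (GRCh38.p14). The correlation across genes of the deviations from the group means was -0.12, -0.33 and -0.17 for replicate numbers 1, 2 and 3. Between different numbers it ran from -0.17 (control 3 with TAX 1) to 0.29 (control 3 with TAX 2). Deviations cancel out within a group, so these correlations depend on each other. They cannot say whether cultures of the same number were handled together. The correlation was 0.28 for control 2 with TAX 1, and what such libraries share was not tested. Alternatives were a pseudocount of 0.1, a filter of 0.1 FPKM or none, quantile normalization, centring of library medians, no trend, a replicate block, unadjusted p, and leaving out each library.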

Additional observations from a re-analysis of the deposited data

How the results depend on the processing

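For the 10 p53 targets the count at an adjusted p under 0.05 (limma) was 0 higher and 0 lower in all 13 alternatives that give one. At an unadjusted p the count was 1 only without control replicate 1 (DDB2). Signs changed for values near 0. With quantile normalization RRM2B was at -0.0248. With library medians centred GDF15 was at -0.0113, SESN1 at -0.000322, RRM2B at -0.0206 and ZMAT3 at -0.0111. With 1 library left out, MDM2 ranged from -0.0742 to 0.0121, GDF15 from -0.00846 to 0.110, and RRM2B from -0.00938 to 0.0868. The cause was not tested. The median of all tested genes was 0.05, and 0.0058 without control replicate 3.

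Over all tested genes 39 were higher and 20 lower at an adjusted p under 0.05. These counts were 0 and 1 with no filter on low values, 25 and 12 with a filter of 0.1 FPKM, 47 and 48 with quantile normalization, 46 and 50 with library medians centred, and 955 and 298 at an unadjusted p. With 1 library left out they ranged from 8 to 31 higher and from 7 to 18 lower. With the replicate block they were 13 and 13, and whether the numbers pair the libraries is not known. Depth is unknown, so values near 0, such as those of GDF15, are judged only by the spread between libraries.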
